A study of Mus musculus with 6 samples.

Results

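Cholesterol is made in the cytosol and endoplasmic reticulum from acetyl-CoA, and 7 enzymes of that route are described here in mouse marrow progenitors with and without Brd9: Hmgcs1, Idi1, Fdps, Fdft1, Sqle, Lss and Cyp51. They were found by their exact symbols among the 24411 genes listed for each library, and all 7 were present and passed the filter on low counts. Early enzymes build isoprenoid units, Fdps joins them, Fdft1 commits them to sterols, and the last members close the ring and trim it. As background, the whole route is switched on together when sterol falls in the endoplasmic reticulum: the carrier Scap then brings the transcription factor SREBP-2, made from Srebf2, to the Golgi, where it is cut and released to the nucleus. SREBP-2 binds sterol regulatory elements in the promoters of these genes, usually with NF-Y or Sp1, and dividing marrow progenitors draw on the route for membranes and for the lipid anchors of small GTPases.

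RNA-seq of poly(A)-selected RNA covered 6 libraries of lineage-negative (Lin-) marrow cells, taken from femur and tibia in C57BL/6 mice, 3 Brd9 KO (CD45.2(+) Mx1-Cre Brd9fl/fl) and 3 control (CD45.2(+) Brd9fl/fl). Brd9 is a bromodomain subunit of the non-canonical BAF chromatin remodelling complex, and Mx1-Cre is a recombinase that pIpC, a double-stranded RNA mimic, switches on in marrow and in some other tissues. Animals of both groups were given 3 injections of pIpC at 20 mg/kg, 8 weeks before the cells were taken, and both carried the floxed alleles. The controls held no Cre, so effects of Cre and of Brd9 loss cannot be told apart. By the labels these were recipients of a marrow transplant injected 4 weeks after it, whereas the series design gives primary mice injected 4 weeks after birth and the methods give primary mice, an older age and a further sort for c-Kit. The study describes the libraries as biological triplicates, but no label ties a replicate to an animal of its own, and without that the spread behind the p-values may be technical. In bulk samples, fewer cells of a type and less RNA per cell cannot be told apart.

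Brd9 itself had 15.59, 13.5 and 21.03 CPM (counts scaled to library size, with TMM factors) in Brd9 KO libraries, against 45.87, 49.09 and 52.08 CPM in control libraries, a log2 fold change of -1.56 ± 0.17 (SE; edgeR quasi-likelihood test, Benjamini-Hochberg adjusted p = 0.00345), so each library followed its label. Summed counts ran between 21151031 and 25526248 in Brd9 KO and between 23915415 and 28500168 in control. Brd9 KO replicate 3 stood apart: 8 neutrophil markers summed to 7588.8 CPM in it, against 1153 and 1312 CPM in Brd9 KO replicates 1 and 2 and 1670.2 to 3083.8 CPM in control. Only Camp of the 8 was called, and it was lower in Brd9 KO (log2 fold change -3.555, edgeR adjusted p = 0.0573). Camp had 38 CPM in Brd9 KO replicate 3, against 107.2 to 243.8 CPM in control. The other 7 were not called, and each was highest in Brd9 KO replicate 3. Progenitor markers moved in both directions: of 7, Mpo, a granule enzyme of myeloid progenitors, was lower (log2 fold change -0.98, edgeR adjusted p = 0.00574), the transcription factor Gata2 was higher (1.27, edgeR adjusted p = 0.00369), and the other 5, the receptor Kit among them, were not called. Their sums were 7284.2 to 7472.7 CPM in Brd9 KO and 11204.7 to 12622.8 CPM in control, mostly from Mpo. Of 10 erythroid markers, 6 were lower in Brd9 KO, with sums of 1947.5 to 2649.6 CPM in Brd9 KO and 3054.7 to 3573.2 CPM in control, and 6 of 8 stromal markers were higher, with sums of 110.2 to 175.9 CPM in Brd9 KO and 36.5 to 55.4 CPM in control. Of 8 macrophage markers 5 were higher and 1 lower, with sums of 209 to 286 CPM in Brd9 KO and 221.4 to 301.1 CPM in control. Of 7 genes of the lineage antibodies, the myeloid integrin Itgam was higher (1.19, edgeR adjusted p = 0.0191) and the others were not called. All of these markers were detected in both groups, and their part in the results that follow was not tested.

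Fdps alone of the 7 genes was called with all 6 libraries. It was lower in Brd9 KO by 36.7%, and the other 6 members did not pass the test, with log2 fold changes between -0.21 for Idi1 and 0.36 for Lss. A gene was called at an adjusted p under 0.1, the study's threshold, over 12953 genes tested. Of all these genes 15.4% were called, 9.19% higher and 6.25% lower, so 1 of 7 members is near the background. The members' median log2 fold change was -0.055, against 0.016 over all genes tested. On the log2(TPM + 1) scale the members' median was 0.157, against 0.182 over all genes, and with library totals alone it was 0.034, against 0.102, so that its sign depended on the scaling while it stayed below the median of all genes in each. Of the calls, 59.5% were higher, against 83.3% on the log2(TPM + 1) scale and 74.1% with library totals.

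**Figure D1:**
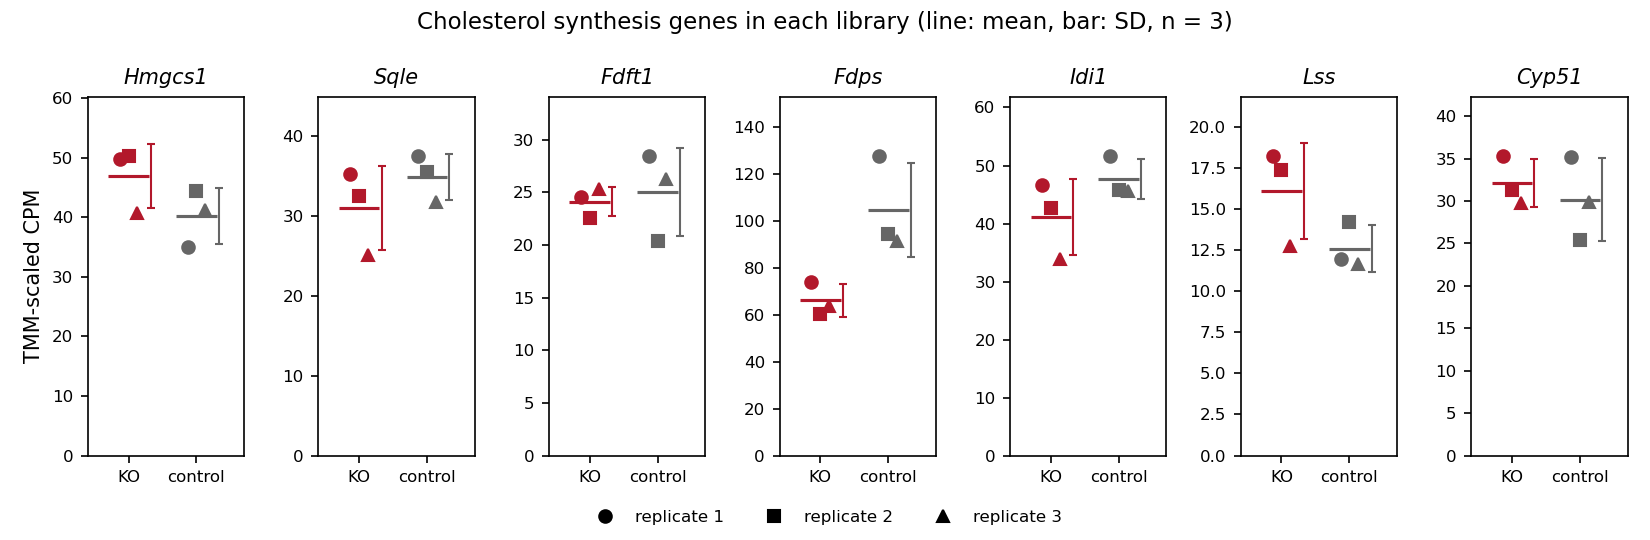
TMM-scaled CPM (y axis, from 0, a scale for each gene) of the 7 genes in the 3 Brd9 KO libraries (red) and the 3 control libraries (grey). Symbols mark the replicate, lines the mean and bars the SD (n = 3). Only for Fdps do the groups not overlap, with 60.42 to 73.93 CPM in Brd9 KO and 91.42 to 127.5 CPM in control.

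Hmgcs1 (chromosome 13, 119690379 to 119708260, plus strand of mm10, 11 exons) is the cytosolic synthase that makes HMG-CoA, the entry into the mevalonate route. It had 49.88, 50.27 and 40.7 CPM in Brd9 KO, against 35.05, 44.45 and 41.26 CPM in control. Brd9 KO replicates 1 and 2 lay above every control library and replicate 3 lay within the control range. The log2 fold change was 0.22 ± 0.13 (SE; 95% interval -0.08 to 0.53; edgeR adjusted p = 0.305).

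The Hmgcs1 promoter is shown because, of the members' promoters that were searched, it alone held the sterol regulatory element core that SREBP binds. RefSeq start-site windows of GRCm38.p6, from 250 bases before the start to 50 after it, were found for 4 of the 7 genes: Hmgcs1, Idi1, Lss and Cyp51. The motif TCACCCCA, searched on both strands, was in 1.56% of all 32851 windows of this length, and in the Hmgcs1 window it begins 137 bases before the start. A longer form that overlaps it, TCACNCCAC, was in 1.24% of windows and again only in Hmgcs1 among the 4. Neither is in the Lss window, and a missing match says only that these letters are not in that stretch. Both are given from 250 bases before the start up to the base before it, Hmgcs1 at chr13:119690101-119690350 and Lss at chr10:76531355-76531604, plus strand, with capitals for TCACCCCAC and for the NF-Y box CCAAT on either strand (ATTGG when read from the other).
Hmgcs1: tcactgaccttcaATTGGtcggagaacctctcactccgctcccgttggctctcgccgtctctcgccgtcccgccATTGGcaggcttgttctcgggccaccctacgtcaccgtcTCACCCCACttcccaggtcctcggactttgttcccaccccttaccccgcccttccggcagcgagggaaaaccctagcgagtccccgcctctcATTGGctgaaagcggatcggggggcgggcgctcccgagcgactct
Lss: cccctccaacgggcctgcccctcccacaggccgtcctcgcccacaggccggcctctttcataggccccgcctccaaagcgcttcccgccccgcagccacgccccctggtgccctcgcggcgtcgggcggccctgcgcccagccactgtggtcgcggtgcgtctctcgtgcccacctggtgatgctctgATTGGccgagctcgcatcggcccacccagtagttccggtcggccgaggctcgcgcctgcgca

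The NF-Y box was in all 4 windows, as 4 matches for Hmgcs1, 2 for Idi1 and 1 each for Lss and Cyp51, and in 37.4% of windows in the whole table. A GC box GGGCGG, the kind of sequence Sp1 binds, was likewise in all 4, against 35.7% of all windows. The E box CACGTG was in none of the 4 and in 7.15% of all windows. None of these 4 genes was called, so the matches are a description of the windows only.

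Idi1 (chromosome 13, 8885501 to 8892451, plus strand, 5 exons) turns isopentenyl diphosphate into its reactive isomer, and so supplies both substrates of Fdps. It had 46.68, 42.67 and 33.95 CPM in Brd9 KO, against 51.58, 45.8 and 45.67 CPM in control. Replicate 1 of Brd9 KO lay inside the control range and the other two below it. The log2 fold change was -0.21 ± 0.13 (SE; 95% interval -0.52 to 0.10; edgeR adjusted p = 0.337).

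Fdps (chromosome 3, 89093588 to 89101959, minus strand, 11 exons) makes farnesyl diphosphate, where the route divides between sterols, prenylated proteins, dolichol and ubiquinone, and it is the target of nitrogen-containing bisphosphonate drugs. It had 73.93, 60.42 and 63.9 CPM in Brd9 KO, against 127.5, 94.42 and 91.42 CPM in control. The groups did not overlap, which held for 33.5% of all genes tested, and control replicate 1 was the highest library. Means were 66.1 ± 7.02 CPM in Brd9 KO and 104.4 ± 20.0 CPM in control (SD, n = 3 each). The log2 fold change was -0.66 ± 0.15 (SE; 95% interval -1.02 to -0.30; edgeR adjusted p = 0.0417), the 841st smallest p of 12953. A two-sided exact permutation test of the same CPM gave p = 0.1, the smallest that 3 libraries against 3 allow.

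The Fdps call was lost on the log2(TPM + 1) scale, with a log2 fold change of -0.42 ± 0.14 (limma adjusted p = 0.136), and without Brd9 KO replicate 2, with -0.60 ± 0.18 (edgeR adjusted p = 0.125). TPM is a relative abundance, the count scaled by transcript length and library. On that scale too the groups did not overlap, with 103.95, 92.61 and 72.81 TPM in Brd9 KO, against 129.55, 119.82 and 109.4 TPM in control. An annotated same-strand protein-coding model, Gm43738, overlaps Fdps. Reads of such a pair can be divided between them, although the estimated counts of Fdps were whole in all 6 libraries.

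Fdft1 (chromosome 14, 63145150 to 63179578, minus strand, 10 exons), squalene synthase, takes the first step that leads only to sterols. It had 24.51, 22.55 and 25.27 CPM in Brd9 KO, against 28.42, 20.41 and 26.28 CPM in control. All 3 Brd9 KO libraries lay inside the control range, and the log2 fold change was -0.06 ± 0.14 (SE; 95% interval -0.39 to 0.28; edgeR adjusted p = 0.829). The gene overlaps Ctsb on the opposite strand over 774 bases, and since the labels call the libraries unstranded while the methods name a stranded kit, its value is uncertain. The estimated counts of Fdft1, like those of Fdps, were whole in every library, which does not settle the strand.

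Sqle (chromosome 15, 59315077 to 59331192, plus strand, 11 exons) is squalene epoxidase, an oxygen-using enzyme and a rate-limiting step of the sterol branch. It had 35.35, 32.52 and 25.13 CPM in Brd9 KO, against 37.51, 35.51 and 31.84 CPM in control. Replicate 3 was the lowest of all 6 libraries, while replicates 1 and 2 of Brd9 KO fell inside the control range. The log2 fold change was -0.17 ± 0.15 (SE; 95% interval -0.51 to 0.16; edgeR adjusted p = 0.471).

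Lss (chromosome 10, 76531588 to 76557138, plus strand, 22 exons), lanosterol synthase, folds the epoxide into the sterol ring system. It had 18.21, 17.35 and 12.73 CPM in Brd9 KO, against 11.96, 14.21 and 11.63 CPM in control. Replicates 1 and 2 of Brd9 KO lay above every control library, and replicate 3 inside the control range. The log2 fold change was 0.36 ± 0.17 (SE; 95% interval -0.05 to 0.76; edgeR adjusted p = 0.228). Without Brd9 KO replicate 3 it was 0.50 ± 0.15 and called higher (edgeR adjusted p = 0.0527), in a fit that called 31.6% of all genes.

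Cyp51 (chromosome 5, 4081145 to 4104746, minus strand, 10 exons) removes a methyl group from lanosterol and is the counterpart of the fungal enzyme that azole drugs block. It had 35.27, 31.36 and 29.75 CPM in Brd9 KO, against 35.2, 25.39 and 29.92 CPM in control. The groups overlapped almost fully, and the log2 fold change was 0.09 ± 0.14 (SE; 95% interval -0.24 to 0.42; edgeR adjusted p = 0.71). It overlaps Akap9 on the opposite strand over 166 bases, so its value carries the same doubt about strand as that of Fdft1. Its estimated counts were likewise whole in every library.

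Hmgcs1, Idi1 and Lss each overlap a non-coding or unclassified antisense model in the mm10 annotation, and Sqle overlaps no other gene. For the 6 members that were not called, the intervals of the log2 fold change reached no lower than -0.52 and no higher than 0.76. A missed threshold does not show that the groups were alike. Brd9 KO replicate 3, the library with the highest sum of neutrophil markers, was the lowest Brd9 KO library for 5 members: Hmgcs1, Idi1, Sqle, Lss and Cyp51. Over all genes of 3000 to 4000 bases, median log2 deviations from control were 0.075, 0.103 and -0.039 in Brd9 KO replicates 1, 2 and 3. Above 6000 bases they were 0.312, 0.474 and 0.026, and for 2000 to 3000 bases -0.021, -0.054 and -0.02. The share of all genes lowest in replicate 3 was not counted. The parts of length and of neutrophil content were not tested.

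**Figure D2:**
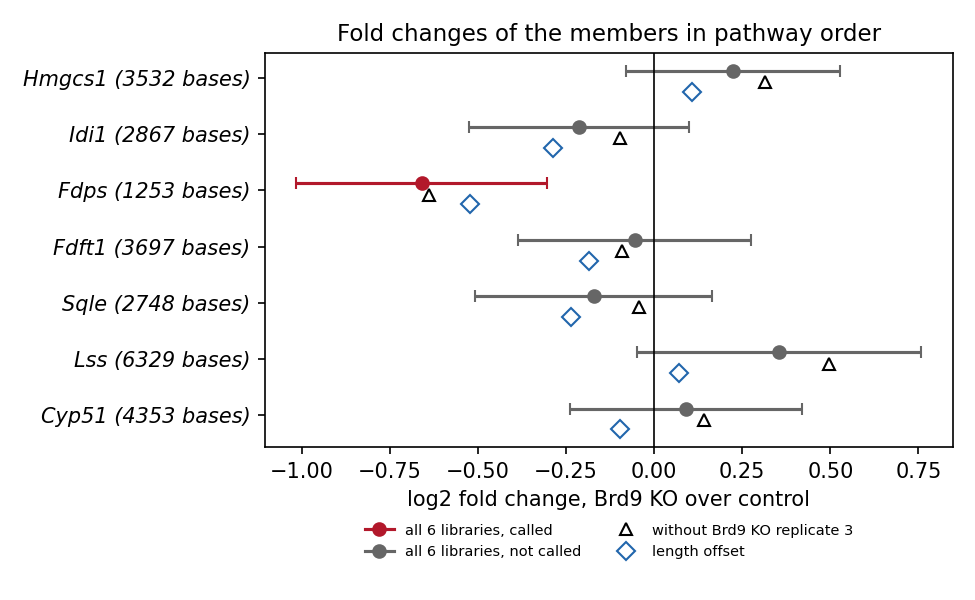
Log2 fold change, Brd9 KO relative to control (x axis) for the 7 genes in pathway order from the top, with the transcript length in bases beside each name. Circles with 95% intervals are the edgeR fit of all 6 libraries (red, called; grey, not called), triangles the fit without Brd9 KO replicate 3 and diamonds the fit with a length offset. Fdps lies between -0.66 and -0.52 in all 3 fits, while Lss moves between 0.07 and 0.50.

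Fdps was the most abundant member by far. Levels of different genes are compared per length, in TPM: Fdps had 89.8 ± 15.8 TPM in Brd9 KO and 119.6 ± 10.1 TPM in control (SD, n = 3 each), and it ranked highest in every library. Idi1 came next in all 6 libraries, with 22.2 ± 6.06 TPM in Brd9 KO and 21.8 ± 1.14 TPM in control, and Lss was lowest in all 6, with 3.80 ± 1.14 TPM in Brd9 KO and 2.53 ± 0.52 TPM in control. Hmgcs1 and Sqle exchanged places between the groups: Hmgcs1 ranked above Sqle in each Brd9 KO library and below it in each control library. Hmgcs1 is the longer of this pair (3532 against 2748 bases), and the part of length in the exchange was not tested. The ranges of Hmgcs1 and Sqle over libraries overlapped in both groups, at 20.3 ± 5.04 and 17.6 ± 5.0 TPM in Brd9 KO and at 14.9 ± 3.37 and 16.7 ± 1.65 TPM in control. Idi1 lay within the spread of Hmgcs1 in Brd9 KO as well. Cyp51 and Fdft1, at 11.1 ± 2.16 and 9.78 ± 0.97 TPM in Brd9 KO and at 8.79 ± 0.53 and 8.67 ± 0.86 TPM in control, did not differ beyond their spread either.

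Summed over the 7 members, the TPM came to 199.4, 190.1 and 134.2 in Brd9 KO, against 197.1, 198.4 and 183.6 in control. Replicate 3 of Brd9 KO was low, and the other 5 libraries lay close together. Fdps made up 52.13%, 48.71% and 54.24% of that sum in Brd9 KO, against 65.72%, 60.41% and 59.59% in control. Each Brd9 KO share was below each control share. Fdps is the shortest member at 1253 bases, and fold changes rose with transcript length, as described further on. The part of length in these shares was not tested.

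Ratios of TPM within a library compare steps along the route. Fdps over Idi1, the enzyme before it, was 4.034, 3.599 and 4.771 in Brd9 KO, against 6.258, 5.216 and 5.048 in control. Fdps over Fdft1, the enzyme after it, was 10.08, 8.931 and 8.408 in Brd9 KO, against 14.89, 15.36 and 11.5 in control. Both ratios were lower in every Brd9 KO library than in any control library. Idi1 over Hmgcs1 was likewise lower throughout, at 1.09 ± 0.07 in Brd9 KO and 1.503 ± 0.296 in control (SD, n = 3 each). Lss over Sqle was higher throughout, at 0.215 ± 0.006 in Brd9 KO and 0.150 ± 0.017 in control, and for each of these 4 ratios 3 libraries against 3 can give no exact p below 0.1. Sqle over Fdft1 and Cyp51 over Lss overlapped between the groups. Each of the 4 separated ratios sets a shorter transcript against a longer one, and with the length offset described further on the difference of the fitted log2 fold changes shrank to -0.34, against -0.60 without it, for Fdps and Fdft1, to -0.24, against -0.45, for Fdps and Idi1, to 0.31, against 0.53, for Lss and Sqle, and to -0.39, against -0.44, for Idi1 and Hmgcs1.

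The members did not vary as 1 block across libraries. As a description over the 6 libraries, which share the group difference and the scaling, Pearson's r of log2 CPM was 0.963 between Sqle and Idi1 and 0.899 between Hmgcs1 and Lss, but -0.728 between Hmgcs1 and Fdps. Outside the lists, and among 9148 genes of at least 10 CPM, the genes whose log2 CPM tracked the members' mean most closely over the 6 libraries were Toe1 (r = 0.970), Crocc (r = 0.969), A130010J15Rik (r = 0.961), Zfp60 (r = 0.958) and Sclt1 (r = 0.949). None of these 5 was called. They were picked as the closest of many genes over few libraries, so an r of this size may arise from the choice alone. The members' own r with that mean ran from 0.074 for Hmgcs1 to 0.862 for Idi1.

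The members' fold changes tended to rise with transcript length, but fell from Sqle to Idi1 and from Hmgcs1 to Fdft1. Fdps, the shortest at 1253 bases, had the lowest log2 fold change (-0.66), and Lss, the longest at 6329 bases, the highest (0.36). In between stood Sqle (2748 bases, -0.17), Idi1 (2867 bases, -0.21), Hmgcs1 (3532 bases, 0.22), Fdft1 (3697 bases, -0.06) and Cyp51 (4353 bases, 0.09), for a Spearman correlation of 0.857 over 7 genes. Across all 12953 genes tested it was 0.381. The median log2 fold change of all genes was -0.191 for lengths of 1000 to 1500 bases, -0.024 for 2000 to 3000 bases, 0.058 for 3000 to 4000 bases and 0.276 above 6000 bases.

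**Figure D3:**
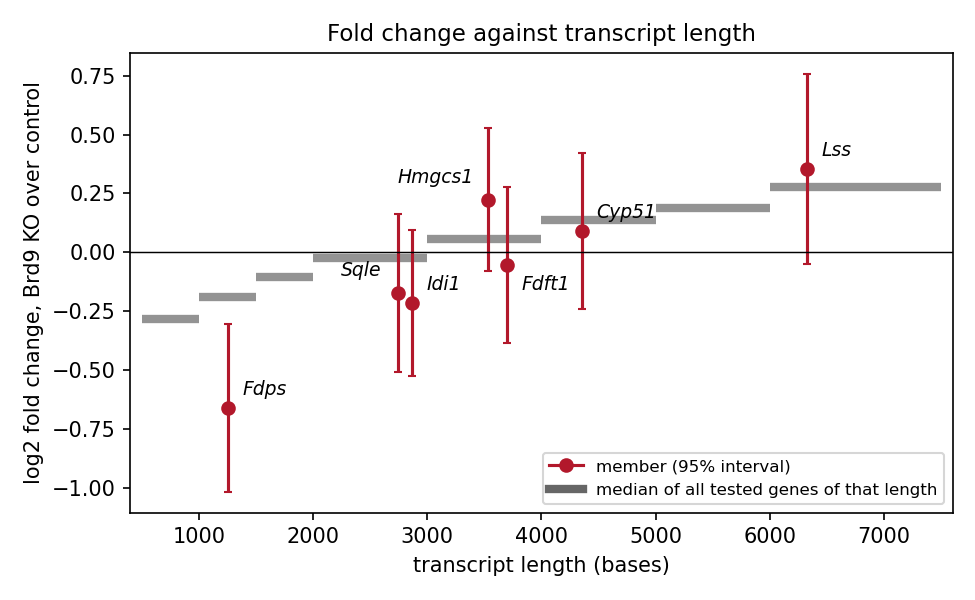
Log2 fold change, Brd9 KO relative to control (y axis) against transcript length in bases (x axis). Red points are the 7 genes with their 95% intervals, and grey bars the median of all tested genes in each length class (the outer bars stand for all genes under 1000 and over 6000 bases). The median climbs with length, and Fdps, at -0.66, lies below the -0.191 of its class.

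An offset that removes this trend with length within each library, chosen after seeing the data, left Fdps lower, at -0.52 ± 0.13 (SE; edgeR adjusted p = 0.0345). That fit called 25.9% of all genes and 1 of the 7 members. The median of all genes tested was -0.059 in that fit, against 0.016 without the offset. Within its length class, 4.15% of genes had a lower log2 fold change than Fdps in the fit without the offset. The value of Lss came down to 0.07 ± 0.13 (edgeR adjusted p = 0.732) and that of Hmgcs1 to 0.11 ± 0.09 (edgeR adjusted p = 0.407), while Idi1 stood at -0.29 ± 0.12 (edgeR adjusted p = 0.13) and Sqle at -0.23 ± 0.13 (edgeR adjusted p = 0.238). The mean transcript length of the reads differed between libraries of 1 group as well, at 2957, 3096 and 2674 bases in Brd9 KO and 2500, 2821 and 2731 bases in control.

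Other genes of sterol and lipid metabolism were read from 7 lists of 62 genes in all, of which 60 were tested and 4 were called, 2 higher and 2 lower, against 15.4% of all genes tested. The 5 other mevalonate enzymes had a median log2 fold change of -0.153 and none was called. Acat2, the thiolase that feeds Hmgcs1, had 31.5 ± 3.90 CPM in Brd9 KO and 35.6 ± 2.13 CPM in control (log2 fold change -0.18, edgeR adjusted p = 0.377). Of 9 post-lanosterol enzymes, which finish the sterol ring, none was called either (median -0.132). Lbr, a sterol reductase that is also a lamin B receptor of the nuclear envelope, had 348.9 ± 27.9 CPM in Brd9 KO and 313.7 ± 21.4 CPM in control (0.15, edgeR adjusted p = 0.388).

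Of the 7 genes that control SREBP none was called. Srebf2, the gene of the factor that drives the members, had 131.5, 138.2 and 92.4 CPM in Brd9 KO, against 88.26, 103.4 and 104.3 CPM in control. Replicates 1 and 2 of Brd9 KO lay above every control library, as they did for Hmgcs1 and Lss, and replicate 3 lay inside the control range. The log2 fold change of Srebf2 was 0.29 ± 0.16 (edgeR adjusted p = 0.283). Without replicate 3 it was 0.45 ± 0.12 and called higher (edgeR adjusted p = 0.0355), in a fit that called 31.6% of all genes. With the length offset it was 0.094 ± 0.096 and not called (edgeR adjusted p = 0.523). Srebf1, which yields the SREBP forms tied more to fatty acid synthesis, had 99.1 ± 8.08 CPM in Brd9 KO and 109.4 ± 5.03 CPM in control (-0.14, edgeR adjusted p = 0.398).

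Sterol uptake and transport held 1 gene higher of 11 tested. Mylip, the E3 ligase that marks lipoprotein receptors for breakdown, had 26.88, 25.21 and 23.92 CPM in Brd9 KO, against 16.96, 16.11 and 19.47 CPM in control. The groups did not overlap, and the log2 fold change was 0.53 ± 0.12 (edgeR adjusted p = 0.0388). The call was lost without Brd9 KO replicate 1 (edgeR adjusted p = 0.151), Brd9 KO replicate 2 (0.113), control replicate 1 (0.106) or control replicate 2 (0.125). Mylip is a known target of the oxysterol receptors LXR, and of 9 other LXR and efflux genes tested 1 was called, lower (median 0.115).

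The branch that takes farnesyl diphosphate away from sterols, towards prenylated proteins, dolichol and ubiquinone, had the lowest median of the 7 lists, -0.217 over 9 genes. None of them was called, and 4 lay lower in every Brd9 KO library than in any control library, as did 16.3% of all genes tested. With the length offset 3 of the 9 were called lower, in a fit that called 2084 of all 12953 genes lower and 25.9% in either direction. Of the 4, Dhdds, the dolichol synthase subunit, had 66.7 ± 2.03 CPM in Brd9 KO and 77.5 ± 5.42 CPM in control (-0.22, edgeR adjusted p = 0.189). Fnta, the alpha subunit shared by the enzymes that attach farnesyl and geranylgeranyl groups, had 67.4 ± 4.67 CPM in Brd9 KO and 75.4 ± 2.93 CPM in control (-0.16, edgeR adjusted p = 0.309).

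Fatty acid synthesis held 1 called gene in each direction. Scd1, a desaturase that makes monounsaturated fatty acids, had 4.132, 4.584 and 5.064 CPM in Brd9 KO, against 9.424, 11.3 and 11.63 CPM in control, a log2 fold change of -1.23 ± 0.17 (edgeR adjusted p = 0.00791). Acss2, which makes cytosolic acetyl-CoA from acetate, had 59.74, 56.02 and 51.6 CPM in Brd9 KO, against 29.03, 32.18 and 38.76 CPM in control, a log2 fold change of 0.74 ± 0.13 (edgeR adjusted p = 0.0167). Neither overlapped between the groups. The other 8 of the 10 fatty acid genes tested were not called, and the list's median was 0.029.

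**Figure D4:**
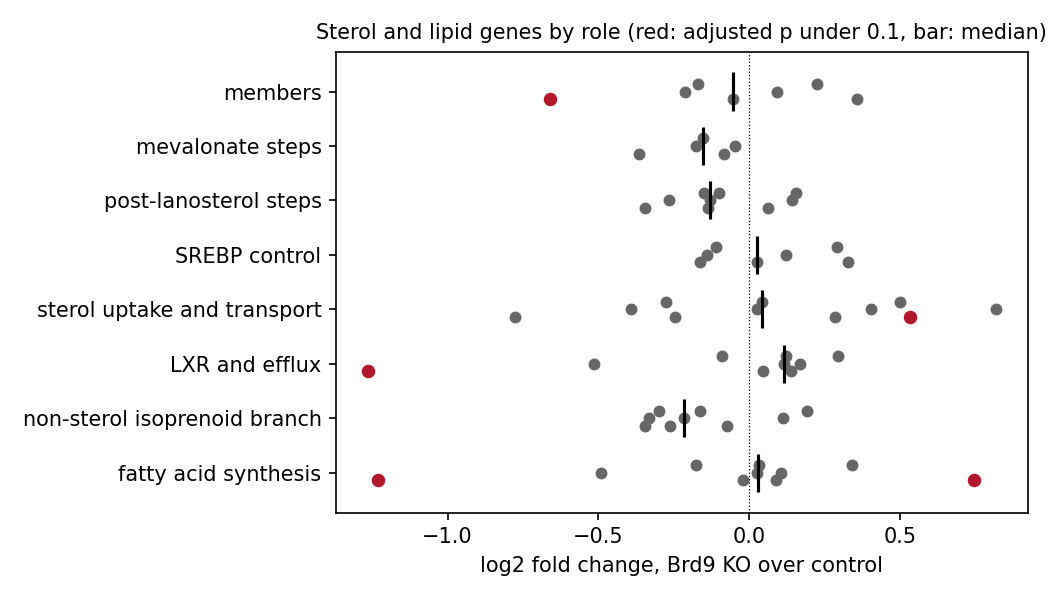
Log2 fold change, Brd9 KO relative to control (x axis) for the 7 members, in the top row, and for the tested genes of 7 lists by role. Each point is a gene, red where the adjusted p was under 0.1 and grey elsewhere, and the black bar is the row's median. Red points are 1 of 7 members and 4 of 60 other genes, against 15.4% of all genes tested.

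The number of listed genes called varied with the libraries and with length. Without Brd9 KO replicate 3, 12 of 61 listed genes were called, 8 higher and 4 lower, in a fit that called 31.6% of all genes. With the length offset 16 of 60 were called, 2 higher and 14 lower, in a fit that called 25.9% of all genes. The median of all genes tested was -0.059 in that fit. Cell-cycle genes bear on a route that dividing cells use: 1 of 10, the ribonucleotide reductase subunit Rrm2, was lower, and their sums ran between 3102.1 and 3453.9 CPM in Brd9 KO and between 3155.4 and 3595.4 CPM in control. The part of cell division in the Fdps value was not tested.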

How the data were processed

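By the methods, the authors ran STAR and RSEM in an nf-core pipeline against mm10. The deposited files give RSEM's expected count per gene (an estimated count, rounded here to whole numbers), the authors' TPM and transcript lengths in bases. Counts were filtered with filterByExpr (cut-off 0.405 CPM), scaled by TMM (factors 0.927 to 1.077) and tested with edgeR 4.0.16 in R 4.3.3, Brd9 KO against control with no covariate, with Benjamini-Hochberg adjustment across the 12953 genes tested. The SE of a log2 fold change was taken as its size over the root of F. Between 3.88% and 4.35% of counts above 0 per library were not whole. Alternatives used DESeq2 1.42.0, limma 3.58.1, other scalings, filters and thresholds, a replicate block, each library left out and a length offset. The fit was tested on simulated counts.

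The members and lists were chosen with earlier results of these data known. Named were the members, Brd9, up to 4 called genes per list with the smallest p (where none was called, the 2 with the highest mean CPM) and the 5 genes most like the members' mean. Some genes named by this rule are not reported here. Gene positions came from GENCODE's mm10 annotation and promoters from RefSeq.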

Additional observations from a re-analysis of the deposited data

How the results depend on the processing

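Fdps kept its sign under all 19 alternatives, with log2 fold changes between -0.75 and -0.42, and lost its call under 3 of them: limma on log2(TPM + 1) and on log2(TPM + 0.1) (-0.421 and -0.425, adjusted p = 0.136 and 0.138) and leaving out Brd9 KO replicate 2. The members called were 0 under both TPM fits and 0 to 2 with a library left out, with 0 when Brd9 KO replicate 2 and 2 when Brd9 KO replicate 3 was dropped. The members' median log2 fold change was 0.157 with log2(TPM + 1), 0.172 with log2(TPM + 0.1), 0.034 with library totals alone and -0.186 with the length offset, and -0.165 (without control replicate 2) to 0.043 (without control replicate 1) with a library left out. The median of all genes tested was 0.182 with log2(TPM + 1), 0.221 with log2(TPM + 0.1), 0.102 with library totals alone and -0.059 with the length offset. The other pathway genes called were 8 with DESeq2, 16 with the length offset and 3 to 12 with a library left out, 12 without Brd9 KO replicate 3. All genes called, 1999 in the edgeR fit, were 1015 at an adjusted p under 0.05, 3349 with the length offset (37.8% of them higher, against 59.5%), and 641 (without Brd9 KO replicate 1) to 4150 (without Brd9 KO replicate 3) with a library left out. Signs of genes that were not called turned under some settings, and the TPM scales also raised the median of all genes. On log2(TPM + 1) and log2(TPM + 0.1) the log2 fold change was 0.032 and 0.031 for Sqle, 0.157 and 0.172 for Fdft1, 0.033 and 0.033 for Acat2, 0.07 and 0.071 for Srebf1, 0.052 and 0.053 for Fnta, and 0 for Dhdds on both. It was 0.034 for Fdft1 with library totals and -0.096 for Cyp51 with the length offset. With a library left out, it ran between -0.186 and 0.043 for Fdft1 and between -0.023 and 0.214 for Cyp51. Correlations of deviations from the group mean between same-numbered libraries were -0.096, 0.568 and 0.014. Deviations of 3 libraries from their own mean constrain each other, so these values do not settle whether the replicate numbers pair the libraries. A fit with the replicate block called 2077 genes, 1 member (Fdps, -0.649, edgeR adjusted p = 0.0205) and 4 other pathway genes. The SE of Fdps was 0.11 in that fit, against 0.154 without the block. The causes of these changes were not tested. The least covered member, Lss, had at least 264 counts in every library, and 3 libraries a group limit what can be called.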
